A study of Mus musculus with 18 samples.

Results

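Mitochondrial fatty acid oxidation was examined through 10 enzyme and transporter genes, taken as a list of gene symbols that was drawn up with earlier results of these data known. All 10 symbols were found among the 34620 gene rows of the RNA-Seq count files, and all 10 were among the 17421 genes that passed the filter on low counts. RNA came from microdissected ventral dentate gyrus of adult male Swiss Webster mice, aged 8 to 12 weeks. The WT group had mothers and grandmothers that were wild type (WT). The F1 group had a mother heterozygous for the serotonin 1A receptor (5HT1A-/+), and its grandmaternal genotype was also given as 5HT1A-/+. The F2 group had a WT mother and a 5HT1A-/+ grandmother. By the study's account the F1 and F2 animals were themselves genetically WT. In the study F1 animals came from heterozygous mothers and fathers, with heterozygous and knockout littermates, and the WT controls from a separate WT line. Maternal and grandmaternal genotype therefore differed between the groups together with breeding line and, for F1, with paternal genotype. Each group had 2 libraries, and the labels do not say how many animals went into a library, so p-values here measure the spread between libraries, which may be technical.

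Mitochondria take up long-chain fatty acids through the carnitine shuttle. Carnitine palmitoyltransferase 1 on the outer membrane joins the acyl group to carnitine, a carrier moves the acylcarnitine across the inner membrane, and carnitine palmitoyltransferase 2 hands the acyl group back to coenzyme A. In the matrix a set of acyl-CoA dehydrogenases, each preferring a different chain length, starts every round of beta-oxidation, and the mitochondrial trifunctional protein carries out the remaining steps for long chains. In brain this pathway is usually placed in astrocytes more than in neurons. Neurons carry a brain form of carnitine palmitoyltransferase 1, Cpt1c, which sits in the endoplasmic reticulum, binds malonyl-CoA and has little transferase activity.

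Of the 10 genes only Cpt1c, in F2 against WT, passed the adjusted p threshold of 0.01 used below in the main test, and not in every alternative. Cpt1a, the other listed form of carnitine palmitoyltransferase 1, did not pass it. This pair was chosen after its values were seen, and the 250 bases before the start of each gene are shown. The sequences are those of RefSeq (GRCm38.p6), and each matched mm9, the build of the count files, exactly and in 1 place. The Cpt1a window lies at chr19:3323051-3323300 on the plus strand and the Cpt1c window at chr7:52230222-52230471 on the minus strand, and neither overlaps an annotated exon. Both are written 5′ to 3′ with CCAAT boxes (CCAAT) and GC boxes (GGGCGG), found on either strand, in capitals.
Cpt1a: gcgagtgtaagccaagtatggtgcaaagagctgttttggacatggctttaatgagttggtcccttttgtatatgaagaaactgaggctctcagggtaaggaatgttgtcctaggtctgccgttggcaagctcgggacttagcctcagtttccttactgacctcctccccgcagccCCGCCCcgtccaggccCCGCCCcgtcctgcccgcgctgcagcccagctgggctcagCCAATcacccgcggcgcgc
Cpt1c: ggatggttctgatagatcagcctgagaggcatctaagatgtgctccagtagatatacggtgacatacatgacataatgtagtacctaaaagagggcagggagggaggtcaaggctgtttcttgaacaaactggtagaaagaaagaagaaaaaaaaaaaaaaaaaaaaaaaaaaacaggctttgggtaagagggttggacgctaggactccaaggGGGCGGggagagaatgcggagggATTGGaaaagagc
The Cpt1a window held 3 of these matches and a GC content of 59.6%, and the Cpt1c window held 2 matches and a GC content of 44.0%. A CCAAT box was present in the windows of 2 of the 10 genes, these being Cpt1a and Cpt1c, and in 33.8% of 32851 windows of all RefSeq genes. A GC box was present in 8 of 10 and in 32.7% of all windows. The windows of Hadha and Hadhb overlap on opposite strands, so the GC box of the Hadha window is counted again in the Hadhb window. The letters of an E-box (CACGTG), a CRE (TGACGTCA) and an ERR site (TCAAGGTCA) were in 0 of 10 windows on either strand, against 6.02%, 1.55% and 0.387% of all windows. These are descriptions of letters in a window and say nothing of whether a factor binds.

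Gene levels are given as CPM, the counts of a gene relative to the TMM-scaled total of its library. Changes are log2 fold changes from edgeR's exact test, with standard error (SE), 95% interval and a Benjamini-Hochberg adjusted p over all tested genes, and a gene was called at an adjusted p under 0.01. In F1 against WT, 0 of 10 genes were called by the exact test, where 12.3% of all tested genes were called. The quasi-likelihood test and DESeq2 also called 0, and the unadjusted p was under 0.05 for 1 gene by the exact test and for 2 genes by each of the other tests. In F2 against WT, 1 of 10 genes was called, against 12% of all tested genes in either direction and 8.10% that were lower. That gene was Cpt1c, which fell. In F2 against F1, 0 of 10 genes were called, against 0.740% of all genes, and none reached an unadjusted p under 0.05 in the exact test, the quasi-likelihood test or DESeq2. The median log2 fold change of the 10 genes was 0.07 in F1 and 0.13 in F2, beside 0.01 and -0.00 over all tested genes. The 10 genes were therefore called no more often than the genes at large, and the values below show where single members stood.

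**Figure D1:**
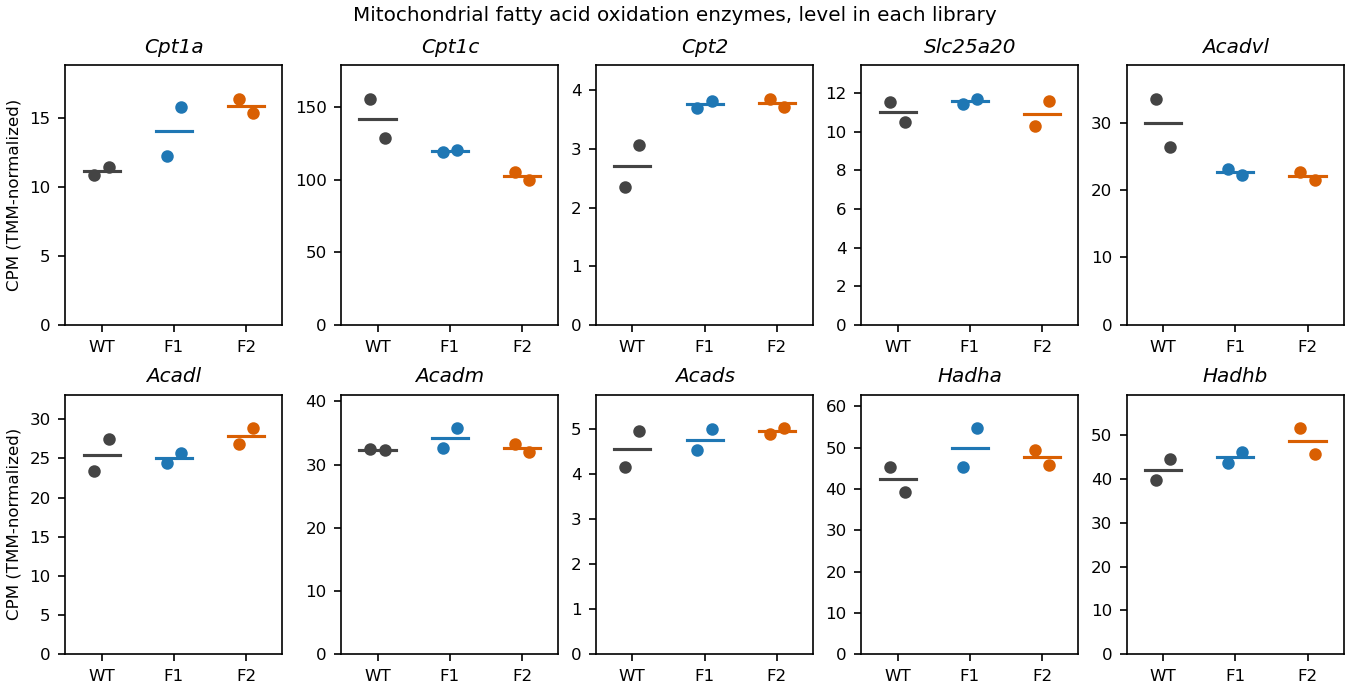
CPM of each of the 10 genes (vertical axes, each starting at 0) in the 2 WT, 2 F1 and 2 F2 libraries (points), with the mean of each group as a line. Cpt1c and Acadvl lie below both WT libraries in all F1 and F2 libraries, Cpt1a and Cpt2 lie above them, and the other 6 genes do not keep to 1 side.

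Levels between genes were compared per length, as CPM per kb of exon. The length of a gene was that of all its annotated exons merged. The order, with the positions of Acadvl in it, depends on these lengths. In CPM without length, Hadha (42.3) and Hadhb (42.2) stood above Acadm (32.3) and Acadl (25.5) in WT. In WT, Cpt1c stood first at 51.6 ± 6.86 CPM per kb (SD, n = 2). It was followed by the dehydrogenases Acadl (12.7 ± 1.45), Acadvl (11.2 ± 1.85) and Acadm (11.0 ± 0.0255), whose libraries overlapped from each gene to the next. Hadha stood at 7.92 ± 0.783, Hadhb at 6.39 ± 0.500 and the carrier Slc25a20 at 6.19 ± 0.399 CPM per kb, of which the last pair overlapped. The lowest levels were those of Cpt1a (2.59 ± 0.0964), Acads (2.01 ± 0.254) and Cpt2 (1.14 ± 0.211), and no library of these 3 genes overlapped the next gene in the order. The order was kept in F1 and F2 with 1 exception, Acadvl, which went from position 3 in WT to position 5 in both other groups. In F1 it stood at 8.45 ± 0.235 CPM per kb and in F2 at 8.23 ± 0.296, behind Acadm and Hadha, although its F1 libraries overlapped those of Hadha.

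The carnitine shuttle was the step with the widest spread of changes. Cpt1c, the brain form (ENSMUSG00000007783.8, mm9 chr7:52214743-52230184, minus strand), gave 156 and 129 CPM in the WT libraries, 119 and 121 in F1, and 105 and 99.8 in F2. Every F1 library was below every WT library, and every F2 library was below every F1 library. The mean was 142 ± 18.9 CPM in WT, 120 ± 1.01 in F1 and 103 ± 4.02 in F2 (SD, n = 2). In F2 against WT, Cpt1c fell by 0.47 on the log2 scale (SE 0.13, interval -0.72 to -0.23, adjusted p = 0.00222 by the exact test), a change of -27.9%. The F1 value was -0.25 (SE 0.13, interval -0.49 to 0.00, adjusted p = 0.156), and it was -0.10 without WT replicate 1 (adjusted p = 0.723) and -0.15 after correction for GC content and exon length (adjusted p = 0.296). The difference between F2 and F1 was -0.23 (interval -0.47 to 0.02, adjusted p = 0.644) and was not called. The WT libraries differed most from each other, and without WT replicate 1 the F2 change was -0.32 with an adjusted p of 0.135. The F2 call held in 13 of 19 alternatives, while the direction was kept in all 19. Those that lost the call also included leaving out F2 replicate 1 (-0.51) or F2 replicate 2 (-0.43) and the quasi-likelihood test (-0.47, adjusted p = 0.0138).

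Cpt1a, the form that catalyses acylcarnitine formation in liver and in astrocytes (ENSMUSG00000024900.4, chr19:3323301-3385732, plus strand), was at 10.9 and 11.4 CPM in WT, 12.2 and 15.8 in F1, and 16.3 and 15.3 in F2. All F1 and F2 libraries were above both WT libraries, with the first F1 library closest to WT. Its mean was 11.1 ± 0.415 CPM in WT, 14.0 ± 2.49 in F1 and 15.8 ± 0.711 in F2. The log2 fold change was 0.33 in F1 (SE 0.18, interval -0.02 to 0.68, adjusted p = 0.188) and 0.51 in F2 (SE 0.18, interval 0.15 to 0.86, adjusted p = 0.0294), and neither was called. Leaving out either F1 library brought the F2 value under the threshold, at 0.52 with an adjusted p of 0.00805 without replicate 1 and 0.00891 without replicate 2. Those fits compare the same F2 and WT libraries with a spread estimated from 5 libraries. Leaving out a WT or F2 library instead gave F2 values of 0.47 to 0.56 with adjusted p values of 0.101 to 0.248. The F1 value was 0.51 without F1 replicate 1 (adjusted p = 0.0356) and 0.14 without F1 replicate 2 (adjusted p = 0.714).

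Since both forms are counted in the same library, their balance does not depend on how libraries are scaled. Cpt1a made up 6.52% of the counts of the pair in WT replicate 1 (exact 95% binomial interval 5.89 to 7.19) and 8.15% in WT replicate 2 (7.32 to 9.04). The share was 9.31% (8.42 to 10.2) and 11.5% (10.6 to 12.6) in the F1 libraries. In the F2 libraries it was 13.4% (12.3 to 14.6) and 13.3% (12.1 to 14.6). The groups did not overlap in this share, and the order was WT, F1, F2. Cpt1a lay above and Cpt1c below both WT libraries in all F1 and F2 libraries. The pair was chosen with this known, so the share had to separate WT from F1 and F2 and adds no support to the single values. The intervals cover counting error only, those of WT replicate 2 and F1 replicate 1 overlapped, as did that of F1 replicate 2 with those of both F2 libraries, and with 2 libraries a group the share was not tested. Per length of exon the Cpt1a share was 4.28% and 5.38% in WT, 6.17% and 7.72% in F1, and 9.03% and 8.97% in F2, so Cpt1c stayed the more abundant form in every library.

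**Figure D2:**
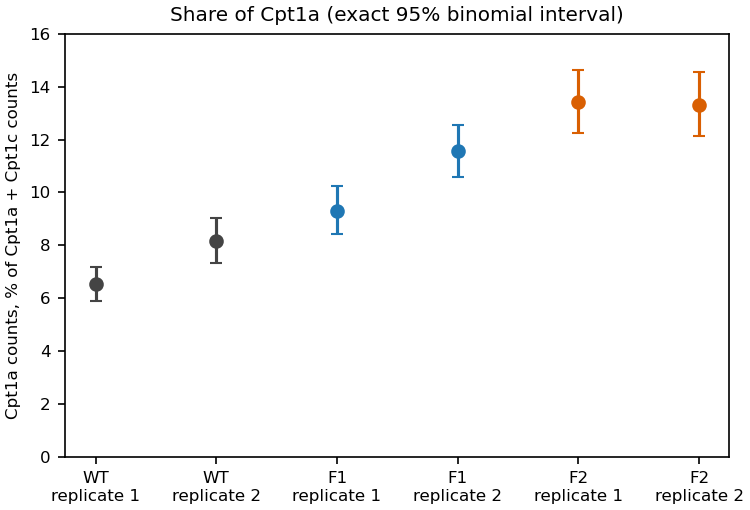
Share of Cpt1a in the summed counts of Cpt1a and Cpt1c, in percent, for each of the 6 libraries, with exact 95% binomial intervals that cover counting error only. The points go from 6.52% and 8.15% in WT to 13.4% and 13.3% in F2, with F1 between. The pair was chosen after the levels of both genes were seen.

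In bulk tissue, fewer cells of a type and less RNA per cell cannot be told apart. Markers of cell types other than granule cells were present in every library, and the sums of some lists were higher in F1 and F2. The summed level of 8 astrocyte markers was 2414 and 2642 CPM in WT, 2956 and 3587 in F1, and 4023 and 3357 in F2. Of these markers, 6 of 8 were above both WT libraries in all F1 and F2 libraries, 1 was called in F1 and 5 in F2. The sum of 7 oligodendrocyte markers was 1083 and 1972 CPM in WT, 2937 and 2213 in F1, and 1514 and 2861 in F2. Of the 7, 3 were called in F1 and 2 in F2, beside the same shares of all tested genes. The sum of 5 granule cell markers was 779 and 794 CPM in WT, 686 and 838 in F1, and 984 and 927 in F2. Of the 5, 0 were called in F1 and 0 in F2. Sums of microglia markers (108 and 110 CPM in WT, 128 and 149 in F1, 165 and 143 in F2) and of endothelial and mural markers (131 and 148, 156 and 179, 180 and 173) were also above WT in all F1 and F2 libraries. So was the sum of 2 oligodendrocyte precursor markers (25.8 and 32.8, 40.6 and 48.5, 49.2 and 49.5). That of 4 choroid plexus and ependyma markers was not (18.9 and 16.8, 18.1 and 20.7, 22.3 and 22.4). Of 6 microglia markers 0 were called in F1 and 4 in F2, of 6 endothelial and mural markers 0 and 1, and of 2 precursor markers 1 and 1. The sums of interneuron markers (565 and 631 CPM in WT, 758 and 547 in F1, 640 and 707 in F2) and of CA field and mossy cell markers (314 and 356, 330 and 252, 313 and 314) were not above WT in all F1 and F2 libraries, and the oligodendrocyte sum of F2 replicate 1 was below that of WT replicate 2. Of 5 interneuron markers 0 were called in F1 and 1 in F2, and of 5 CA field and mossy cell markers 1 and 0. No marker of these lists was at 0 counts in any library, and the granule cell transcription factor Prox1 was at 228 to 345 CPM. The part of these cell types in the changes of Cpt1a and Cpt1c was not tested.

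Cpt2, the inner-membrane transferase (ENSMUSG00000028607.9, chr4:107576586-107596215, minus strand), was the lowest of the 10 genes, with 80 and 87 counts in WT, 112 and 118 in F1, and 103 and 100 in F2. These counts correspond to 2.35 and 3.06 CPM in WT, 3.70 and 3.82 in F1, and 3.85 and 3.71 in F2. All 4 F1 and F2 libraries were above both WT libraries and lay close together. The log2 fold change was 0.48 in F1 (SE 0.24, interval 0.00 to 0.95, adjusted p = 0.163) and 0.49 in F2 (SE 0.24, interval 0.01 to 0.97, adjusted p = 0.161). At this depth the interval spans from about no change to a near doubling, and the gene was not called. Without WT replicate 1 the values were 0.30 in F1 and 0.31 in F2, and without WT replicate 2 they were 0.69 in both. Slc25a20, the carnitine-acylcarnitine carrier (ENSMUSG00000032602.5, chr9:108564429-108586972, plus strand), was at 11.5 and 10.5 CPM in WT, 11.5 and 11.7 in F1, and 10.3 and 11.6 in F2. Its groups overlapped, with log2 fold changes of 0.07 in F1 (interval -0.27 to 0.41) and -0.01 in F2 (interval -0.36 to 0.33).

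Among the acyl-CoA dehydrogenases, the very-long-chain enzyme Acadvl had values apart from the other 3. Acadvl (ENSMUSG00000018574.8, chr11:69823685-69828913, minus strand) was at 33.5 and 26.4 CPM in WT, 23.1 and 22.2 in F1, and 22.7 and 21.5 in F2. The F1 and F2 libraries lay within a narrow band below both WT libraries. Its mean was 30.0 ± 4.98 CPM in WT, 22.7 ± 0.631 in F1 and 22.1 ± 0.795 in F2. The log2 fold change was -0.40 in F1 (SE 0.15, interval -0.70 to -0.10, adjusted p = 0.0470) and -0.44 in F2 (SE 0.16, interval -0.74 to -0.14, adjusted p = 0.0280), so neither was called. Both were under 0.05, the level of the study's methods. The study lists Acadvl among the genes it found changed in both expression and methylation in F1 and F2. As with Cpt1c, WT replicate 1 was the highest library, and without it the values were -0.22 in F1 and -0.25 in F2. Without WT replicate 2 the F2 value was -0.59 and was called (adjusted p = 0.00890).

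Acadvl shares 1151 nt of its 2686 nt of exon with exons of Dvl2, a Wnt signalling gene on the opposite strand. The library kit does not mark strand, and the strand setting of the counting is not given in the sources used here, so the counts of these genes there are uncertain. Dvl2 was at 54.2 and 40.8 CPM in WT, 25.0 and 22.4 in F1, and 28.2 and 26.2 in F2. It fell by 1.01 on the log2 scale in F1 (SE 0.16, adjusted p = 2.08e-08) and by 0.80 in F2 (SE 0.16, adjusted p = 1.47e-05), in the direction of the Acadvl values. The part of the shared stretch in the Acadvl values was not tested.

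The other 3 dehydrogenases had log2 fold changes whose intervals spanned 0. Acadl, the long-chain enzyme (ENSMUSG00000026003.5, chr1:66877413-66909851, minus strand), was at 23.4 and 27.5 CPM in WT, 24.4 and 25.7 in F1, and 26.9 and 28.8 in F2. Its log2 fold change was -0.02 in F1 (interval -0.31 to 0.26) and 0.13 in F2 (interval -0.15 to 0.42). Acadm, the medium-chain enzyme (ENSMUSG00000062908.6, chr3:153585321-153607596, minus strand), was at 32.4 and 32.3 CPM in WT, 32.7 and 35.7 in F1, and 33.3 and 31.9 in F2. With log2 fold changes of 0.08 in F1 (interval -0.17 to 0.34) and 0.01 in F2 (interval -0.24 to 0.27), it was among the most narrowly bounded members. Acads, the short-chain enzyme (ENSMUSG00000029545.7, chr5:115560308-115569355, minus strand), was at 4.15 and 4.96 CPM in WT, 4.52 and 4.99 in F1, and 4.90 and 5.01 in F2. Its groups overlapped, and its log2 fold changes of 0.07 in F1 and 0.12 in F2 had intervals of -0.36 to 0.49 and -0.30 to 0.55.

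The trifunctional protein is built from an alpha subunit, Hadha, with hydratase and dehydrogenase activity, and a beta subunit, Hadhb, with thiolase activity. Their genes lie head to head on chromosome 5 (Hadha ENSMUSG00000025745.5, chr5:30444841-30481702, minus strand, and Hadhb ENSMUSG00000059447.7, chr5:30481788-30511133, plus strand), with 272 bases between their RefSeq starts, and Hadha shares 78 nt of exon with its neighbour Fam59b. Hadha was at 45.3 and 39.4 CPM in WT, 45.3 and 54.6 in F1, and 49.5 and 45.8 in F2. Hadhb was at 39.8 and 44.5 CPM in WT, 43.8 and 46.2 in F1, and 51.6 and 45.7 in F2. For both subunits the F2 libraries were above the WT libraries, while the F1 libraries overlapped them. The Hadha log2 fold change was 0.24 in F1 (interval -0.03 to 0.51, adjusted p = 0.219) and 0.17 in F2 (interval -0.10 to 0.44, adjusted p = 0.424). For Hadhb it was 0.09 in F1 (interval -0.16 to 0.35, adjusted p = 0.669) and 0.21 in F2 (interval -0.05 to 0.46, adjusted p = 0.266). Leaving out 1 library moved these values to between 0.10 and 0.38 (F1) and 0.08 and 0.28 (F2) for Hadha, and to between 0.02 and 0.19 (F1) and 0.12 and 0.30 (F2) for Hadhb. Hadha took 53.2% and 46.9% of the counts of the pair in WT, 50.8% and 54.2% in F1, and 48.9% and 50.04% in F2, so WT overlapped F1 and F2, while both F1 shares were above both F2 shares.

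**Figure D3:**
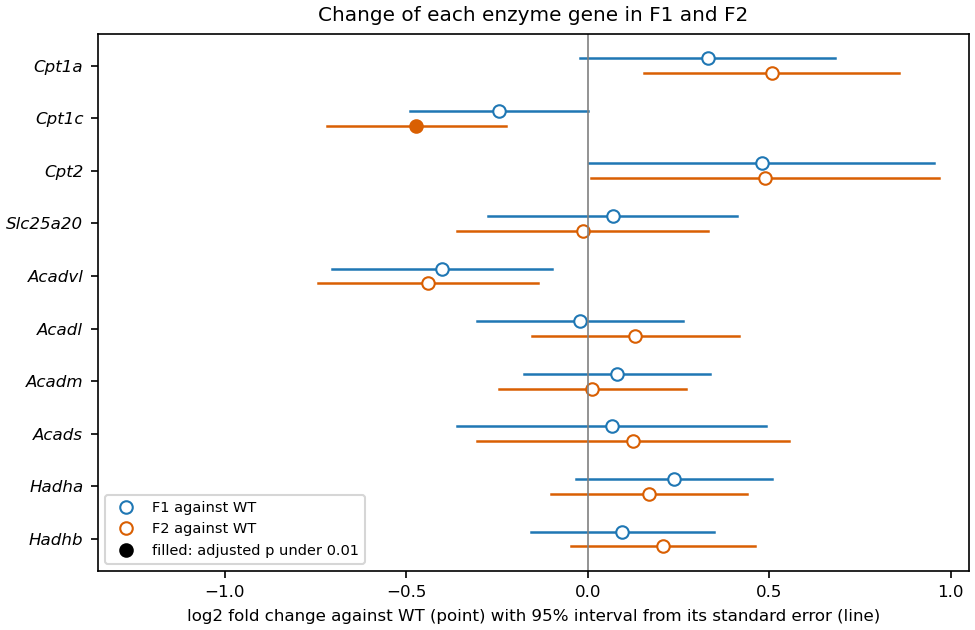
Log2 fold change of each of the 10 genes in F1 against WT and in F2 against WT (points), with 95% intervals from the standard error (lines). Filled points have an adjusted p under 0.01, which is the case only for Cpt1c in F2. The intervals of Acadvl lie below 0 in both comparisons, and those of Cpt2 lie above 0 in both, with lower ends of 0.0042 in F1 and 0.0078 in F2. The intervals come from the standard error and not from the test. For Cpt2 the unadjusted p of the exact test was 0.0545 in F1 and 0.0533 in F2, above 0.05.

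Across the 10 genes, the libraries of F1 and WT did not overlap for 5, beside 60.4% of all tested genes, and those of F2 and WT did not overlap for 6, beside 63.0%. All F1 and F2 libraries lay on 1 side of both WT libraries for 4 of 10, beside 44.7% of all tested genes. Cpt1a and Cpt2 were the 2 above WT (21.0% of all tested genes) and Cpt1c and Acadvl the 2 below it (23.7%). F1 and F2 are compared with the same WT libraries, so their values are not independent of each other. Between F2 and F1, which share no library, 2 of 10 genes did not overlap, Cpt1c (lower in F2) and Acadl (higher in F2, log2 fold change 0.15, interval -0.13 to 0.44), beside 39.1% of all tested genes. At an adjusted p under 0.05, the level given in the study's methods, 1 gene was called in F1 (Acadvl) and 3 in F2 (Cpt1a, Cpt1c and Acadvl), beside 20.8% and 20.7% of all tested genes.

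Another 61 genes of fatty acid oxidation and its control were listed beside the 10, and 60 of them were tested. Of the 60, 3 rose and 2 fell in F1, and 2 rose and 4 fell in F2, with medians of 0.08 and 0.10 on the log2 scale. The 5 genes called in F1 and 6 in F2 were a smaller share than the 12.3% and 12% of all tested genes called in either direction, so single genes are given as values and not as a result about the pathway. Cpt1b, the muscle form of carnitine palmitoyltransferase 1, was not tested, with 9 and 9 counts in WT, 4 and 3 in F1, and 1 and 3 in F2, and most of its exon sequence lies in exons of Chkb. Of the 5 enzymes listed for the remaining steps of a round in the matrix, the log2 fold change was positive for 5 in F1 and for 4 in F2, and Hsd17b10 and Acat1 were those nearest 0. The hydratase Echs1 (0.26 in F1 and 0.35 in F2), the dehydrogenase Hadh (0.24 and 0.40) and the thiolase Acaa2 (0.28 and 0.44) had positive log2 fold changes that were not called, with adjusted p values in F2 of 0.0268, 0.0887 and 0.0312. The electron acceptors Etfa (-0.04 and -0.10), Etfb (-0.07 and -0.15) and Etfdh (0.13 and 0.00) were not called either.

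Of the genes that fell, 1 serves carnitine uptake, 2 are less common dehydrogenases and the last, Sirt4, is a regulator. Slc22a5, the plasma membrane carnitine transporter, was at 13.8 and 12 CPM in WT, 9.18 and 7.97 in F1, and 8.23 and 7.50 in F2. It fell in F2 by 0.71 on the log2 scale (SE 0.19, adjusted p = 0.00216), with a value of -0.59 in F1 (adjusted p = 0.0132). That F2 call held in 14 of 19 alternatives. Those that lost it included leaving out WT replicate 1 (-0.60), F2 replicate 1 (-0.78) or F2 replicate 2 (-0.64). Acad10, an acyl-CoA dehydrogenase family member, was at 7.32 and 7.53 CPM in WT, 3.63 and 2.95 in F1, and 3.22 and 3.38 in F2. It fell by 1.17 in both F1 (SE 0.22, adjusted p = 3.46e-06) and F2 (SE 0.22, adjusted p = 5.73e-06). Its paralogue Acad12 is within 5 kb, and reads that aligned equally well to both genes would have been left uncounted. The part of such reads was not tested. Gcdh, the glutaryl-CoA dehydrogenase of lysine and tryptophan breakdown, was at 44.4 and 36.9 CPM in WT, 32.7 and 31.5 in F1, and 28.8 and 27.5 in F2. It fell in F2 by 0.53 (SE 0.14, adjusted p = 0.00197 by the exact test), a call that held in 14 of 19 alternatives. Those that lost it included leaving out WT replicate 1 (-0.38), F2 replicate 1 (-0.56) or F2 replicate 2 (-0.49).

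The genes that rose were an auxiliary enzyme, a kinase subunit and a carboxylase. Ech1, a dienoyl-CoA isomerase used for unsaturated chains, was at 41.4 and 37.7 CPM in WT, 77.3 and 71.0 in F1, and 54.7 and 58.0 in F2. It rose by 0.91 in F1 (SE 0.12, adjusted p = 1.85e-11) and by 0.51 in F2 (SE 0.12, adjusted p = 0.000608). Its F2 libraries lay between those of WT and F1, with a difference of -0.40 between F2 and F1 (adjusted p = 0.0716). The F2 call held in 15 of 19 alternatives. Those that lost it included leaving out WT replicate 2 (0.45), F2 replicate 1 (0.55) or F2 replicate 2 (0.47).

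Prkaa2, a catalytic subunit of the AMP-activated kinase that holds acetyl-CoA carboxylase inactive, was at 15.5 and 16.8 CPM in WT, 24.4 and 27.8 in F1, and 25.7 and 23.3 in F2. It rose by 0.69 in F1 (SE 0.15, adjusted p = 0.000116) and by 0.60 in F2 (SE 0.15, adjusted p = 0.00121). The F1 call of Prkaa2 held in 18 of 19 alternatives and was lost without WT replicate 1 (0.64). Its F2 call held in 14 of 19. Those that lost it included leaving out WT replicate 1 (0.55), F2 replicate 1 (0.54) or F2 replicate 2 (0.68). Acaca, the acetyl-CoA carboxylase that makes malonyl-CoA, was at 54.9 and 52.0 CPM in WT, 67.9 and 73.3 in F1, and 56.3 and 61.7 in F2. It rose by 0.40 in F1 (SE 0.12, adjusted p = 0.00761), and that call was lost in 12 of 19 alternatives, among them leaving out WT replicate 1 (0.44, adjusted p = 0.0419), WT replicate 2 (0.37, adjusted p = 0.0926), F1 replicate 2 (0.35, adjusted p = 0.0892), F2 replicate 1 (0.40, adjusted p = 0.0163) or F2 replicate 2 (0.41, adjusted p = 0.0147). Sirt4, a mitochondrial sirtuin, fell from 32.4 and 27.1 CPM in WT to 14.1 and 11.7 in F1 and to 11.6 and 12.1 in F2. Its log2 fold change was -1.21 in F1 (SE 0.17, adjusted p = 8.38e-11) and -1.33 in F2 (SE 0.17, adjusted p = 1.46e-12). The calls of Sirt4 and Acad10 in both comparisons held without any 1 library.

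**Figure D4:**
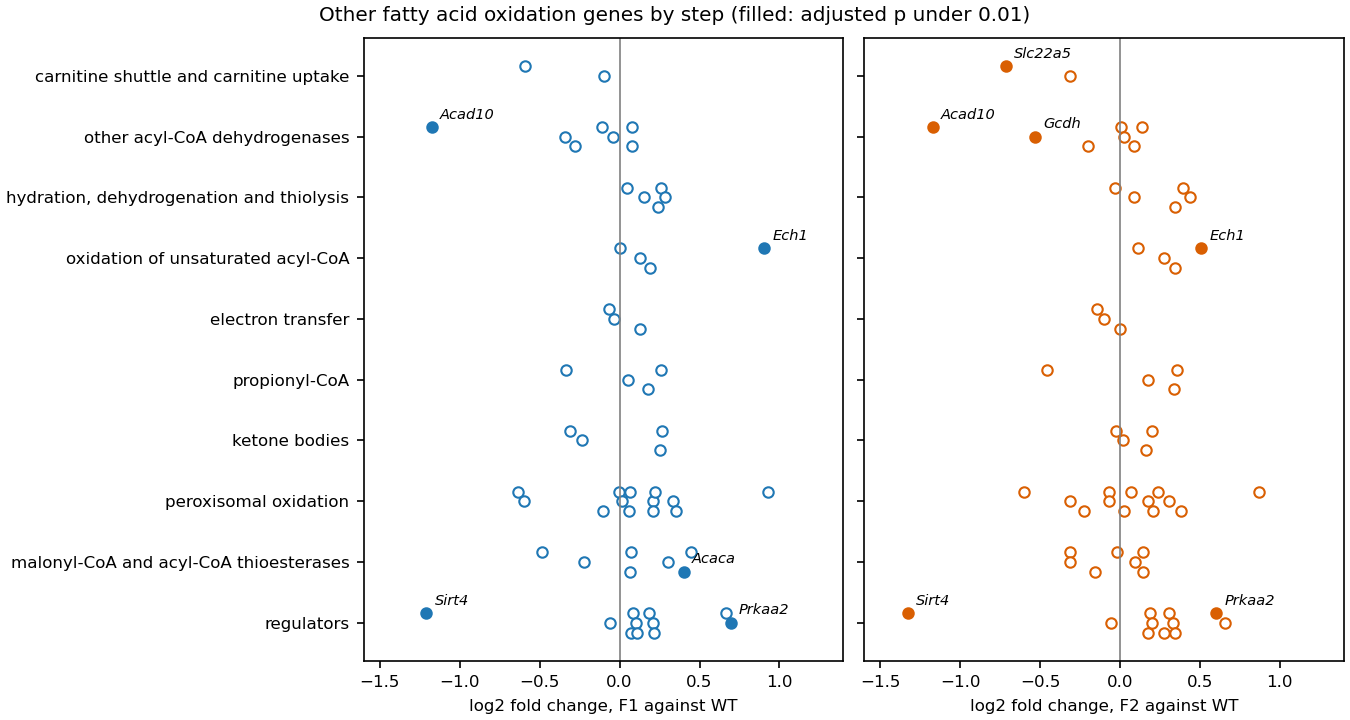
Log2 fold change (horizontal axes) of the 60 tested genes of fatty acid oxidation outside the 10, each a point in the row of its step, in F1 against WT (left) and F2 against WT (right). Filled, named points have an adjusted p under 0.01, and among all points Sirt4 and Acad10 lie farthest below 0 in both comparisons.

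As a comparison from outside fatty acid oxidation, 20 genes of the respiratory chain, citric acid cycle and other mitochondrial functions were examined. Their summed level was 4881 and 4529 CPM in WT, 5786 and 5694 in F1, and 5378 and 5281 in F2. All 20 had a positive log2 fold change in F1 (median 0.20) and 16 of 20 in F2 (median 0.14). In F1, 3 of them rose (Sdha, Atp5a1 and Atp5b, named after their values were seen), and in F2 Sdha alone. Of all 17421 tested genes, 657 rose in F1 and 673 in F2, and 12.3% and 12% were called in either direction. Against these, 7 of the 10 fatty acid oxidation genes had a positive value in F1 and 7 in F2, and Cpt1c and Acadvl were negative in both. No difference between the lists was tested.

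The libraries held 26358165 to 33727936 counts on genes, with the F2 libraries below those of WT and F1, and a member's count in a library ranged from 80 (Cpt2) to 5291 (Cpt1c). The share of uniquely aligned reads that fell on no gene feature, which intersection-strict counting also gives to reads reaching past an exon, was 17.7% and 20.7% in WT, 13.8% and 12.2% in F1, and 13.9% and 17.4% in F2. Replicates of a group differed by more than counting noise, with a chi-square per degree of freedom of 18.5 to 23.0. Htr1a, which encodes the serotonin 1A receptor, was at 62.2 and 55.7 CPM in WT, 49.3 and 55.1 in F1, and 68.6 and 66.6 in F2, with adjusted p values of 0.332 and 0.266 against WT.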

How the data were processed

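RNA was sequenced as single-end reads of 50 nt. The authors aligned reads to mm9 with TopHat, using known junctions only, and counted them per gene with HTSeq in intersection-strict mode, and the deposited values are raw counts per gene. Counts in rows naming no gene, 35.3 to 46.6% of all counts in each file, were left out of library sizes. Here counts were tested in edgeR 4.0.16 (R 4.3.3) by filtering low counts (filterByExpr), TMM scaling, tagwise dispersion over all 6 libraries and the two-sided exact test, with Benjamini-Hochberg adjustment over 17421 genes. The called level of 0.01 is that of the study's results. The common dispersion was 0.0113, a coefficient of variation of 10.6% between replicates. Standard errors came from the delta method. Exon lengths, overlaps and coordinates are those of GENCODE M1, to which 33294 of 34620 symbols matched. Alternatives were the quasi-likelihood test, DESeq2 1.42.0, other scalings, filters and dispersions, a replicate block, correction for GC content and exon length, and leaving out each library. Scripts were tested on simulated data. Named genes were all 10 members, pathway genes called in F1 or F2, 6 core enzymes whatever their p, and genes overlapping a member. The members and lists were chosen with earlier results of these data known. The 12 bisulfite sequencing samples were not analysed here.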

Additional observations from a re-analysis of the deposited data

How the results depend on the processing

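With 2 libraries a group, the SEs of the 10 genes bound what could be seen, and Cpt2 and Acads, the genes with the fewest counts, had the widest intervals. The count called in F1 was 0 under every alternative except an adjusted p under 0.05, which gave 1. The count in F2 (1) became 0 in the quasi-likelihood test, 2 with the dispersion taken from the groups compared and 3 at an adjusted p under 0.05, and was 0 to 2 when leaving out 1 library. It was 0 without WT replicate 1, F2 replicate 1 or F2 replicate 2. Of the other pathway genes, 8 instead of 5 were called in F1 at an adjusted p under 0.05, and 4 to 7 when leaving out 1 library. In F2, 6 became 3 in the quasi-likelihood test, 10 at an adjusted p under 0.05 and 2 to 6 when leaving out 1 library. Over all genes the quasi-likelihood test called 1029 in F1 and 997 in F2, against 2144 and 2084 in the exact test.

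Values near 0 changed sign. Acadl in F1 was 0.0032 with no filter, 0.035 corrected for GC content and exon length (also with the replicate block), and -0.13 to 0.11 leaving out 1 library. Acads in F1 was -0.060 to 0.21 leaving out 1 library. Slc25a20 in F2 was 0.0075 with no filter, 0.055 after the GC and length correction, 0.054 with the block added, and -0.10 to 0.075 leaving out 1 library. Acadm in F2 was -0.0024 with total-count scaling, -0.011 with a filter of 50 counts, and -0.013 to 0.049 leaving out 1 library. In all, 14 of the alternative values of the 10 genes changed sign, the largest in size being 0.11, and the cause was not tested. The furthest that another scaling moved the median of all genes was -0.025, with total counts in F1.

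The replicate numbers did not pair the libraries, and the replicate differences of WT correlated at -0.03 with those of F1 and at -0.08 with those of F2, while F1 with F2 gave -0.18. With a replicate block, the likelihood-ratio test called 1743 genes in F1 and 1758 in F2 and 1 of the 10 in F2 (Cpt1c, adjusted p = 0.00508). The quasi-likelihood test with the replicate block called 0 of the 10 and 2 other pathway genes in F2, and the block with the GC and length correction called 0 of the 10 in F2 (Cpt1c -0.37, adjusted p = 0.0113). Crossing the F2 numbers, an alternative chosen after seeing the data like the GC and length correction, gave 2679 and 2752 calls over all genes.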

Other observations

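Genes beside or overlapping Ech1, Cpt1b and Acadvl are given as values chosen after they were seen. Lgals4, which encodes a galectin and lies within 5 kb of Ech1 on the same strand, was at 9.50 and 7.04 CPM in WT, 1.25 and 0.842 in F1, and 1.35 and 1.89 in F2. Its log2 fold change was -2.98 in F1 (SE 0.30, adjusted p = 3.69e-20) and -2.35 in F2 (SE 0.29, adjusted p = 1.15e-13), opposite in sign to that of Ech1. Chkb, the choline kinase gene that overlaps Cpt1b, was at 38.6 and 36.3 CPM in WT, 23.0 and 18.4 in F1, and 20.0 and 20.3 in F2, with log2 fold changes of -0.85 (SE 0.15, adjusted p = 7.01e-07) and -0.90 (SE 0.15, adjusted p = 2.09e-07). Dlg4, which lies within 5 kb of Acadvl, was at 749 to 870 CPM over all 6 libraries and was not called in either comparison.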
